A study of Mus musculus with 9 samples.

Results

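The phagocyte NADPH oxidase genes *Cybb*, *Cyba*, *Ncf1*, *Ncf4* and *Rac2* were followed in mouse bone marrow-derived dendritic cells (DCs) at rest and after activation. These 5 genes were taken from the count table by symbol, out of 55471 genes, by a rule that names genes and sets no threshold on their values but was written with earlier results of these data known, and all 5 were among the 16260 genes expressed highly enough to be tested. The cells were wild type, came from female C57BL/6 mice, and were grown with GM-CSF. RNA was sequenced from 9 libraries, 3 left unstimulated, 3 treated with lipopolysaccharide (LPS) and 3 treated with IFN-beta (IFN-β), all for 6 h. The cultures were not sorted, so a bulk library can hold cells other than DCs. Each library carries a letter, A, B or C, and no label says whether the letters stand for separate mice or cultures, so the p-values below measure only the spread between these libraries.

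The NADPH oxidase of phagocytes passes electrons from NADPH across a membrane to oxygen and so makes superoxide, which is used to kill microbes. Its catalytic core is a pair of membrane proteins, gp91phox (encoded by *Cybb*, also called Nox2) and p22phox (*Cyba*), each of which stabilises the other. The core stays silent until cytosolic proteins, among them p47phox (*Ncf1*) and p40phox (*Ncf4*) and a Rac GTPase such as Rac2, move to it. In DCs the same enzyme works at the phagosome, where it slows acidification and the breakdown of ingested antigen before cross-presentation. The messenger RNA of the subunits says nothing directly about how much of the enzyme was assembled or active.

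On the mouse genome build GRCm38 the 5 genes lie on 4 chromosomes. *Cybb* (ENSMUSG00000015340) spans chrX:9435252-9487771 on the minus strand, *Cyba* (ENSMUSG00000006519) chr8:122424776-122432930 on the minus strand and *Ncf1* (ENSMUSG00000015950) chr5:134220053-134229625 on the minus strand. *Ncf4* (ENSMUSG00000071715) at chr15:78244801-78262580 on the plus strand and *Rac2* (ENSMUSG00000033220) at chr15:78559167-78572783 on the minus strand share a chromosome and are 296586 bases apart. All 5 are annotated as protein-coding. In *Ncf1*, 408 of 3663 exonic bases overlap *Gtf2ird2* on the other strand, which collected 1873 counts over all libraries against 157456 for *Ncf1*.

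Expression of phox genes in myeloid cells is known to depend on PU.1 and on interferon regulatory factors, and the sequences just upstream of the subunit genes are therefore shown. RefSeq promoters (build GRCm38.p6) were matched for 3 of the 5 genes, and those of *Ncf4* and *Rac2* were not analysed here. The 250 bases before each RefSeq transcription start are printed from 5′ to 3′ on the gene's own strand, at chrX:9469325-9469574 for *Cybb*, chr8:122432941-122433190 for *Cyba* and chr5:134229626-134229875 for *Ncf1*, all on the minus strand. Capitals mark every match, on either strand, to the core of an interferon-stimulated response element (ISRE, GAAANNGAA), a gamma-activated site (GAS, TTCNNNGAA), the PU.1 core GAGGAA or a κB core (GGGANNTTC).
Cybb: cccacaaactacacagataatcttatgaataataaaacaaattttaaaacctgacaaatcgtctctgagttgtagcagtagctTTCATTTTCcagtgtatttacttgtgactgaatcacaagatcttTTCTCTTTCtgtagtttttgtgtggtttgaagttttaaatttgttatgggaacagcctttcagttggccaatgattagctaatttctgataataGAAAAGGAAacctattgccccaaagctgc
Cyba: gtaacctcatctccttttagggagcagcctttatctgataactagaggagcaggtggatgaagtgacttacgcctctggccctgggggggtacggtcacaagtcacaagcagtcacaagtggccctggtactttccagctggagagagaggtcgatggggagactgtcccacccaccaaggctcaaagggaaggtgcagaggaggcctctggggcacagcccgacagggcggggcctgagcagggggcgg
Ncf1: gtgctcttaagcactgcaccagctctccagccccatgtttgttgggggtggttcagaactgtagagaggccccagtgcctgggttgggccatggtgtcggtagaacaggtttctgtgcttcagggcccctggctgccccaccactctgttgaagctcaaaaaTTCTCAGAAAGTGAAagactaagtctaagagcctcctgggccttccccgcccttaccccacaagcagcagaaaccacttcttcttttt

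Counting the start base as 0, the *Cybb* promoter held 3 ISRE cores, at -167 to -159, -123 to -115 and -29 to -21, and a PU.1 core on the other strand from 9 to 14, within the 50 bases after the start that were searched but are not printed. The *Ncf1* promoter held 1 ISRE core from -82 to -74, which overlapped a GAS match from -88 to -80. No match to the 4 motifs lay in the *Cyba* window. The GENCODE model of *Cybb* reaches further upstream than this RefSeq start, so that the *Cybb* window lies inside the annotated gene. Over all 32851 RefSeq promoters of the same 300 bases, 8.56% held an ISRE core, 8.30% a GAS, 28.3% a PU.1 core and 3.94% a κB core. These matches describe the letters only and do not show that a factor bound there.

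The libraries held between 33425803 and 43735199 counts on genes. TMM factors, which correct for libraries dominated by a few very abundant transcripts, ranged from 1.18 to 1.26 in unstimulated, from 0.783 to 0.841 in LPS and from 0.977 to 1.02 in IFN-β libraries. Levels are given as CPM, counts relative to the size of the library after this scaling. DC markers were present throughout, with 7 of 7 (*Itgax*, *Cd74* and *H2-Ab1* the most abundant) above 1 CPM in at least 1 library and a summed level of 4343 to 5199 CPM in unstimulated, 6110 to 6885 CPM in LPS and 4933 to 5202 CPM in IFN-β libraries. Macrophage markers were also present, summing to 1623 to 2007, 2365 to 2914 and 2158 to 2483 CPM. Of 12 neutrophil markers, 6 stayed below 1 CPM in every library, the defining genes *Ly6g*, *Elane* and *Mpo* among them, and their sum (249 to 484 CPM over all libraries) was almost all *Mmp8*. All 5 B cell markers and 3 of 4 T and NK cell markers stayed below 1 CPM everywhere, and 5 markers of eosinophils, basophils and mast cells summed to at most 16.1 CPM. The part of any change in cell composition in the results below was not tested. Activation was evident in every treated library, with *Ifit1*, an interferon-induced gene, at 11.2 to 40.7 CPM unstimulated, 1962 to 2767 CPM with LPS and 727 to 894 CPM with IFN-β, and *Il12b*, a cytokine subunit, at 2.62 to 3.93, 3459 to 3822 and 3.42 to 4.92 CPM.

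Resting DCs already expressed the whole set, at unequal levels. Per kilobase of exon, a scale on which genes can be compared with each other, the unstimulated order was *Cyba* with 499 ± 43.2, *Cybb* with 341 ± 53.6, *Ncf1* with 109 ± 18.6, *Rac2* with 66.7 ± 1.56 and *Ncf4* with 33.2 ± 1.92 CPM per kb (mean ± SD, n = 3). No neighbours in this order overlapped within SD. *Cyba* ranked 38th and *Cybb* 56th of 16239 tested genes on that scale, so the membrane pair was among the most abundant messages of the resting cell, while *Ncf4* ranked 1001st. For comparison, *Rac1*, the widely expressed relative of *Rac2*, stood at 66.9 ± 3.29 CPM per kb, within SD of *Rac2*. With LPS *Cybb* at 614 ± 48.1 came before *Cyba* at 532 ± 43.3 CPM per kb, within SD of each other, and with IFN-β *Cyba* at 556 ± 11.2 and *Cybb* at 477 ± 54.5 CPM per kb kept the resting order. The 3 other members kept their places in LPS, and in IFN-β *Rac2* (53.4 ± 4.32 CPM per kb) and *Ncf4* (47.9 ± 1.15 CPM per kb) came close to each other.

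**Figure D1:**
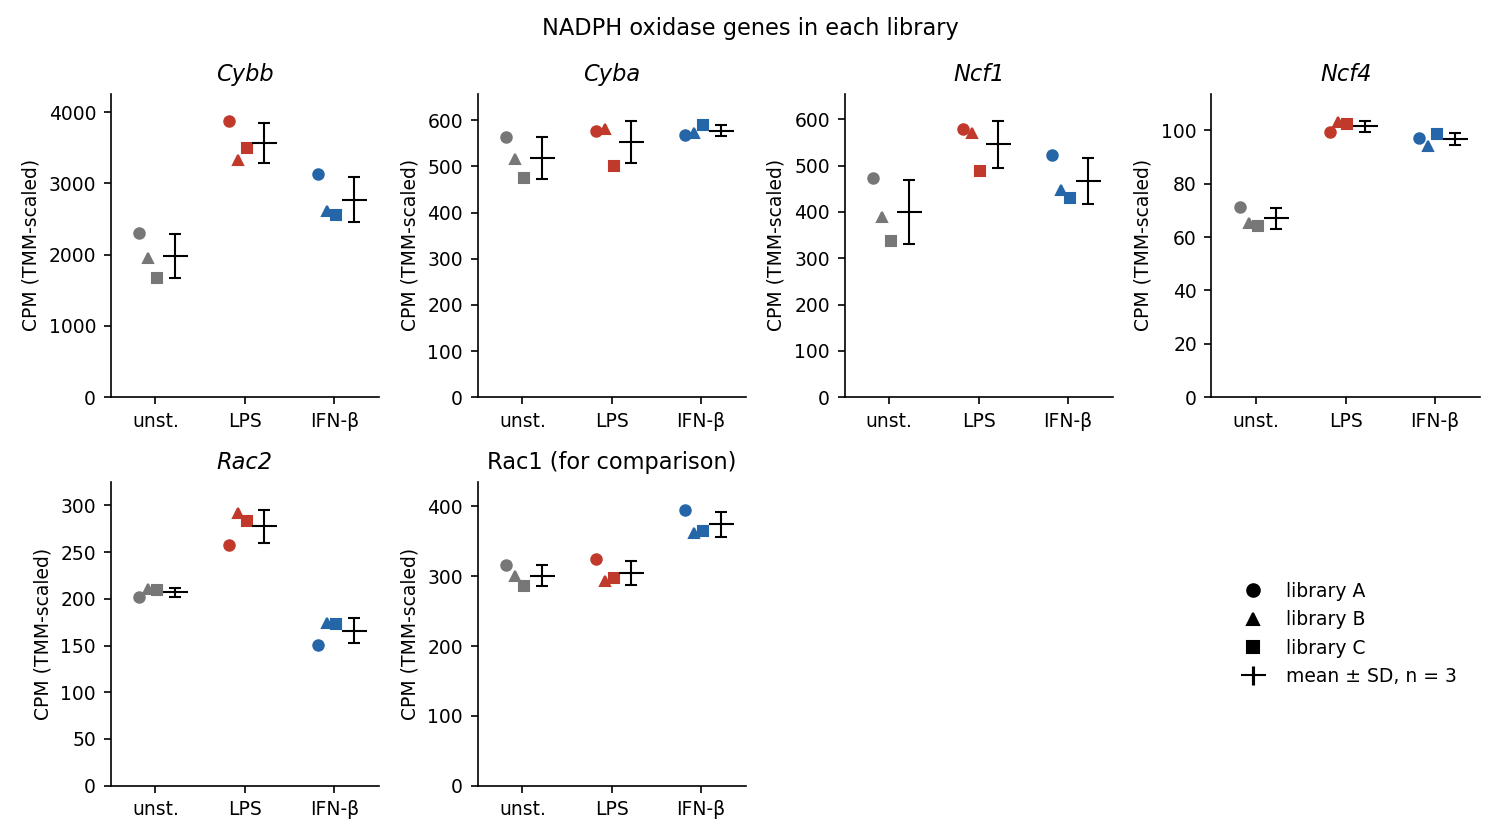
Level of the 5 oxidase genes, and of *Rac1* for comparison, in each of the 9 libraries, as TMM-scaled CPM from 0, with symbols for the library letters and bars for mean ± SD (n = 3). *Cybb* and *Ncf4* lie higher in both treated groups than in any unstimulated library, *Rac2* lies above the unstimulated range with LPS and below it with IFN-β, and *Cyba* stays between 475 and 590.3 CPM in all libraries. With library totals alone as scaling, *Ncf1*, *Ncf4* and *Rac2* in LPS and *Cybb* in IFN-β overlap the unstimulated libraries.

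LPS was compared with unstimulated DCs to ask which subunit messages follow a bacterial stimulus. *Cybb*, *Ncf1*, *Ncf4* and *Rac2* rose with LPS and *Cyba* did not pass the test, although with libraries scaled by their totals alone *Cybb* alone rose, *Cyba* fell, *Ncf1* and *Rac2* turned to the other side of 0 and *Ncf4* no longer passed. The count was 4 of 5 higher and 0 of 5 lower (edgeR quasi-likelihood test, adjusted p under 0.05 over all genes), where 32.8% of all tested genes were higher and 35.4% lower. With library totals alone it was 1 of 5 higher and 1 of 5 lower. In 4 of 5 members the LPS and unstimulated libraries did not overlap, as was the case for 72.4% of all tested genes, so separation of these groups was common among genes in general. The summed macrophage markers were also separate, at 2365 to 2914 CPM with LPS against 1623 to 2007 CPM unstimulated, and their part in the result was not tested.

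*Cybb*, the catalytic subunit, measured 2300.25, 1959 and 1678 CPM in the unstimulated libraries (A, B and C in turn) and 3874, 3328 and 3502 CPM with LPS. The lowest LPS library stood well above the highest unstimulated one. This is a log2 fold change of 0.85 ± 0.13 (SE), or 1.80-fold, with an adjusted p of 1.95e-04 by edgeR. Its partner *Cyba* gave 564, 515 and 475 CPM unstimulated and 576, 582 and 501 CPM with LPS. These ranges overlapped. The log2 difference of *Cyba* was 0.09 ± 0.09 with a 95% interval from -0.08 to 0.27 (edgeR adjusted p = 0.355), so a rise as large as that of *Cybb* lies outside the interval, and scaling by library totals alone turned the value to -0.49. In these bulk libraries, more message per cell and more cells that carry it cannot be told apart.

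Among the cytosolic subunits, *Ncf1*, the organizer that brings the others to the membrane, measured 473, 389 and 338 CPM unstimulated and 579, 570.0 and 488 CPM with LPS. The groups were separate but close, library A of the unstimulated group lying just under library C of the LPS group. Its log2 fold change was 0.45 ± 0.13, or 1.36-fold (edgeR adjusted p = 0.00944), and -0.13 with library totals alone. *Ncf4*, whose product binds phosphatidylinositol 3-phosphate on phagosomes, went from 71.4, 65.4 and 64.2 CPM to 99.2, 103 and 102 CPM. It had the smallest standard error of the set, with a log2 fold change of 0.60 ± 0.06, or 1.51-fold, and an adjusted p of 6.33e-06 by edgeR. With library totals alone that value was 0.02 and no longer passed.

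*Rac2*, which encodes a GTPase able to switch the complex on, measured 201, 210.3 and 209 CPM unstimulated and 258, 292 and 284 CPM with LPS. All LPS libraries were higher than all unstimulated ones under TMM scaling. The log2 fold change was 0.42 ± 0.08, or 1.34-fold (edgeR adjusted p = 5.33e-04), against -0.16 with library totals alone. Its paralogue *Rac1* did not pass the test (316, 300.3 and 286 CPM unstimulated against 325, 293 and 297 CPM with LPS, log2 difference 0.02 ± 0.07, edgeR adjusted p = 0.806), and with library totals alone it was lower, at -0.56.

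The scaling of the libraries decided several of these signs. Without TMM factors the median of all tested genes moved by -0.58 in LPS and by -0.31 in IFN-β against unstimulated, and by 0.27 between the stimuli, and the share of changed genes that were higher went from 48.1% to 21.9%, from 50.3% to 22.3% and from 52.5% to 77.9%. Relative to the median gene the members hardly moved with the scaling. In LPS *Cybb* stood 0.89 above the median gene with either scaling, *Ncf4* 0.64, *Ncf1* 0.49, *Rac2* 0.47 and *Cyba* 0.14. As a plain share of all counts, *Cybb* took 0.212 to 0.272% of an unstimulated and 0.279 to 0.303% of an LPS library, and *Cyba* took 0.0599 to 0.0666% and 0.0421 to 0.0487%.

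**Figure D2:**
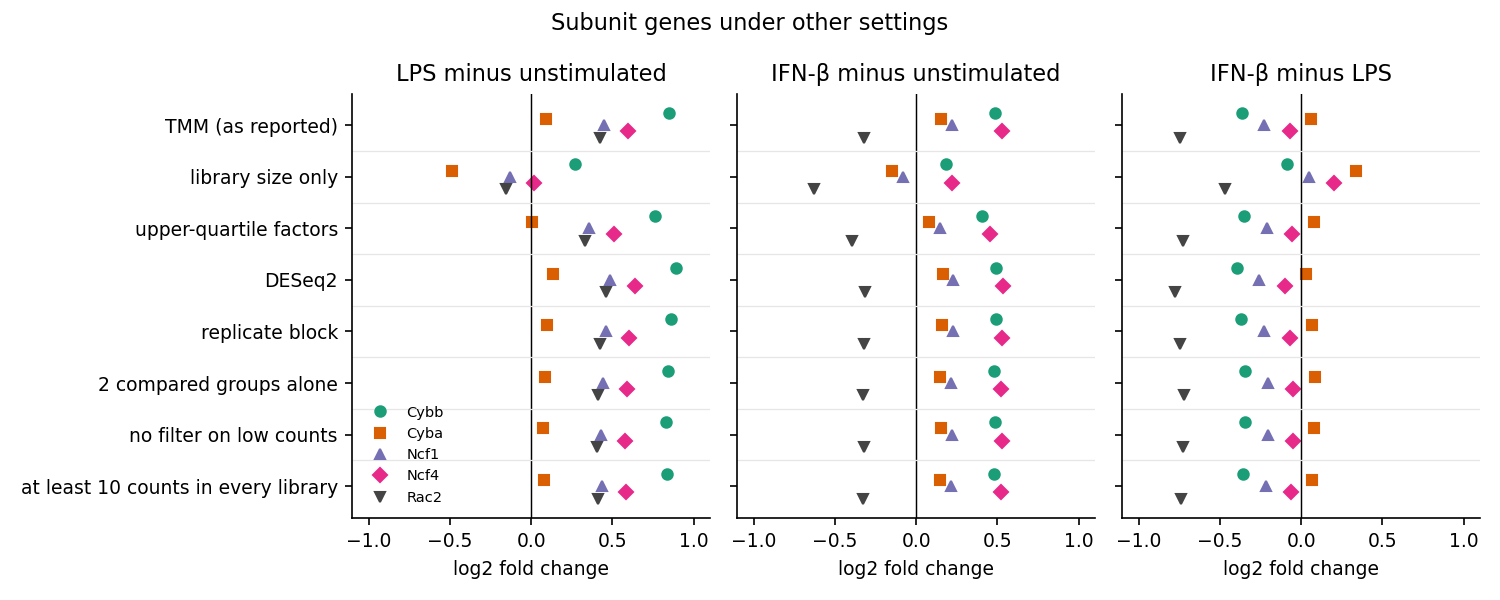
Log2 fold change (horizontal axis) of each member in the 3 comparisons under TMM scaling and 7 other settings of scaling, model and filter (rows). The members nearly keep their spacing in every row, and with library size only the whole set slides so that *Cyba*, *Ncf1* and *Rac2* lie below 0 in LPS, *Cyba* and *Ncf1* below 0 in IFN-β, and *Ncf1* and *Ncf4* above 0 between the stimuli.

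IFN-β was compared with unstimulated DCs to ask whether the interferon that DCs themselves release gives the same changes. *Cybb* and *Ncf4* rose, *Rac2* fell, and *Cyba* and *Ncf1* did not pass the test. That was 2 of 5 higher, where 23.6% of all tested genes were higher, and 1 of 5 lower, where 23.3% were lower. The libraries of the groups did not overlap for 4 of 5 members and for 58.1% of all tested genes. The unstimulated libraries are the same as in the LPS comparison, so the 2 sets of values are not independent of each other.

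With IFN-β *Cybb* reached 3134, 2615 and 2559.9 CPM in libraries A, B and C, all above the 1678 to 2300.25 CPM of the unstimulated group. The log2 fold change was 0.48 ± 0.13, or 1.40-fold (edgeR adjusted p = 0.0122). This call was lost without IFN-β library A (0.38, edgeR adjusted p = 0.0518) and with library totals alone (0.18). *Cyba* gave 568, 573 and 590.3 CPM, just above the unstimulated maximum of 564 CPM. Its log2 difference of 0.16 ± 0.09 had an interval from -0.01 to 0.33 (edgeR adjusted p = 0.169), and it was -0.15 with library totals alone.

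*Ncf1* measured 522, 447 and 430.2 CPM with IFN-β, within reach of the unstimulated range of 338 to 473 CPM. Its log2 difference was 0.22 ± 0.13 with an interval from -0.03 to 0.47 (edgeR adjusted p = 0.183), and -0.08 with library totals alone. Same-letter libraries deviated together, and *Ncf1* was higher with IFN-β within each letter, by 0.14, 0.20 and 0.35 on the log2 scale. With the letter as a replicate block the estimate of 0.23 passed the test (edgeR adjusted p = 0.0115), and it also passed without unstimulated library A (0.36, edgeR adjusted p = 0.0320). *Ncf4* measured 97.3, 94.1 and 98.6 CPM, far above its unstimulated values. The log2 fold change of *Ncf4* was 0.53 ± 0.06, or 1.44-fold (edgeR adjusted p = 5.70e-05).

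*Rac2* was the only member that fell in either comparison with unstimulated DCs under TMM scaling. It measured 150.3, 174 and 173 CPM with IFN-β, all under the unstimulated minimum of 201 CPM. The log2 fold change was -0.32 ± 0.08, a 1.25-fold lower level (edgeR adjusted p = 0.00592), and it stayed negative under every setting tried. *Rac1* rose instead, to 395, 362 and 365 CPM, a log2 fold change of 0.32 ± 0.07 (edgeR adjusted p = 0.00475) that with library totals alone was 0.010 and did not pass.

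**Figure D3:**
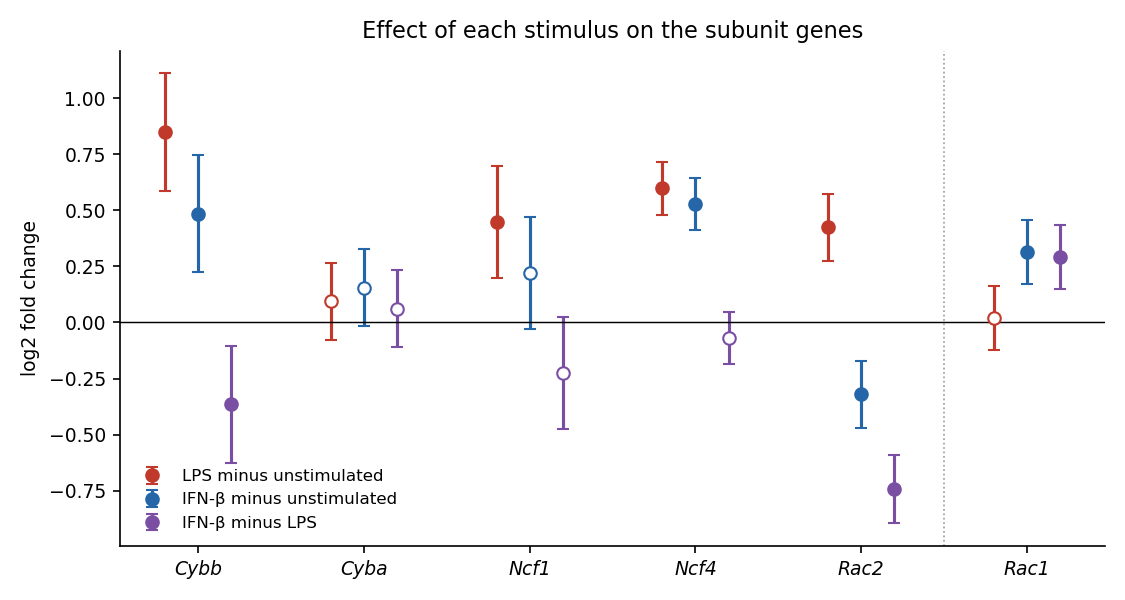
Log2 fold change (vertical axis) with its 95% interval for each member, and for *Rac1* right of the dotted line, in the 3 comparisons; filled points passed the edgeR test at an adjusted p under 0.05. *Rac2* is 0.42 in LPS and -0.32 in IFN-β, and the intervals of *Cyba* cross 0 in all comparisons. Under library totals alone *Cyba*, *Ncf1* and *Rac2* in LPS, *Cyba* and *Ncf1* in IFN-β, and *Ncf1* and *Ncf4* between the stimuli change side.

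The response to IFN-β was then compared with the response to LPS, which is the contrast of the treated groups. *Rac2* was 1.68-fold lower with IFN-β than with LPS, and *Cybb* 1.29-fold lower, while *Cyba*, *Ncf1* and *Ncf4* did not pass the test. This was 0 of 5 higher, where 25.8% of all tested genes were higher, and 2 of 5 lower, where 23.3% were lower. Groups did not overlap for 3 of 5 members and for 56.8% of all tested genes.

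For *Rac2* the 258 to 292 CPM of the LPS group and the 150.3 to 174 CPM of the IFN-β group lay far apart. The log2 difference was -0.74 ± 0.08 (edgeR adjusted p = 2.00e-05), with -0.78, -0.74 and -0.71 within letters A, B and C, and it was -0.47 and still passed with library totals alone. For *Cybb* the LPS values of 3328 to 3874 CPM lay above the IFN-β values of 2559.9 to 3134 CPM. Its log2 difference of -0.37 ± 0.13 was near the threshold (edgeR adjusted p = 0.0419) and was -0.09 with library totals alone. The call was lost on leaving out any of 6 of the 9 libraries (every LPS library, IFN-β libraries B and C, and unstimulated library B). The values ran from -0.47 to -0.31 over all 9. Within letters A, B and C the *Cybb* difference was -0.31, -0.35 and -0.45. With the letter as a replicate block it passed (-0.37, edgeR adjusted p = 9.31e-04).

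Neither the cytosolic pair nor *Cyba* passed the test between the stimuli. *Ncf4* gave a log2 difference of -0.07 with a 95% interval from -0.19 to 0.05 (edgeR adjusted p = 0.362), although its IFN-β libraries all lay just under its LPS libraries, and with library totals alone it was 0.20. *Ncf1* gave -0.23 with an interval from -0.48 to 0.02 (edgeR adjusted p = 0.169), which passed with the letter as a block (-0.23, edgeR adjusted p = 0.0114) and was 0.05 with library totals alone. *Cyba* gave 0.06 with an interval from -0.11 to 0.23 (edgeR adjusted p = 0.587), a value of -0.01 without LPS library C, and 0.34 with library totals alone. *Rac1* was higher with IFN-β than with LPS, by 0.29 (edgeR adjusted p = 0.00652).

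A ratio of 2 genes within 1 library does not depend on how libraries are scaled, and the ratios describe how far the subunit messages moved in step. Each ratio was taken per exon length and compared by an exact two-sided permutation test of 3 libraries against 3, which cannot go below p = 0.1, and the smallest adjusted p over the 18 comparisons was 0.164. The ratios are therefore described by whether the groups overlap. Groups without overlap were common among single tested genes. The shares were 72.4% for LPS against unstimulated, 58.1% for IFN-β against unstimulated and 56.8% between the stimuli. No such share was taken for ratios of other genes.

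In the membrane pair, *Cyba* to *Cybb* was 1.37, 1.47 and 1.58 unstimulated, 0.831, 0.978 and 0.800 with LPS, and 1.01, 1.22 and 1.29 with IFN-β. The 3 groups did not overlap. Against unstimulated, the ratio was lower with LPS, by a log2 difference of -0.76 ± 0.11, and intermediate with IFN-β, by -0.33 ± 0.12. Its absolute value depends on the summed annotated exon lengths, so an excess of either message is not shown. *Ncf1* to *Cybb* was close to constant within the unstimulated (0.315 to 0.326) and IFN-β groups (0.264 to 0.271) and ranged from 0.221 to 0.272 with LPS. Both treated groups lay under the unstimulated one, by 0.40 and 0.26 on the log2 scale.

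In the cytosolic pair, *Ncf4* to *Ncf1* ran from 0.274 to 0.344, from 0.311 to 0.380 and from 0.338 to 0.416 in the 3 groups, which overlapped one another. Within letters the log2 ratio was higher in each pair, by 0.10 to 0.18 with LPS, by 0.27 to 0.32 with IFN-β and by 0.12 to 0.22 with IFN-β against LPS.

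The balance of the GTPases separated all groups. *Rac2* to *Rac1* was 0.925, 1.01 and 1.06 unstimulated, 1.15, 1.44 and 1.38 with LPS, and 0.551, 0.697 and 0.687 with IFN-β. Per length, *Rac2* messages therefore about equalled those of *Rac1* at rest, with log2 differences in the ratio of 0.40 with LPS and -0.64 with IFN-β, and the ratio was 2.06-fold lower with IFN-β than with LPS. Within letters A, B and C that last log2 difference lay between -1.06 and -1.01. In *Rac1*, 2309 of 4496 exonic bases overlap *Daglb* on the other strand (32979 counts over all libraries against 111155 for *Rac1*), and since the strand setting of the counting is not given in the sources used here, reads of these genes might not be fully separated.

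**Figure D4:**
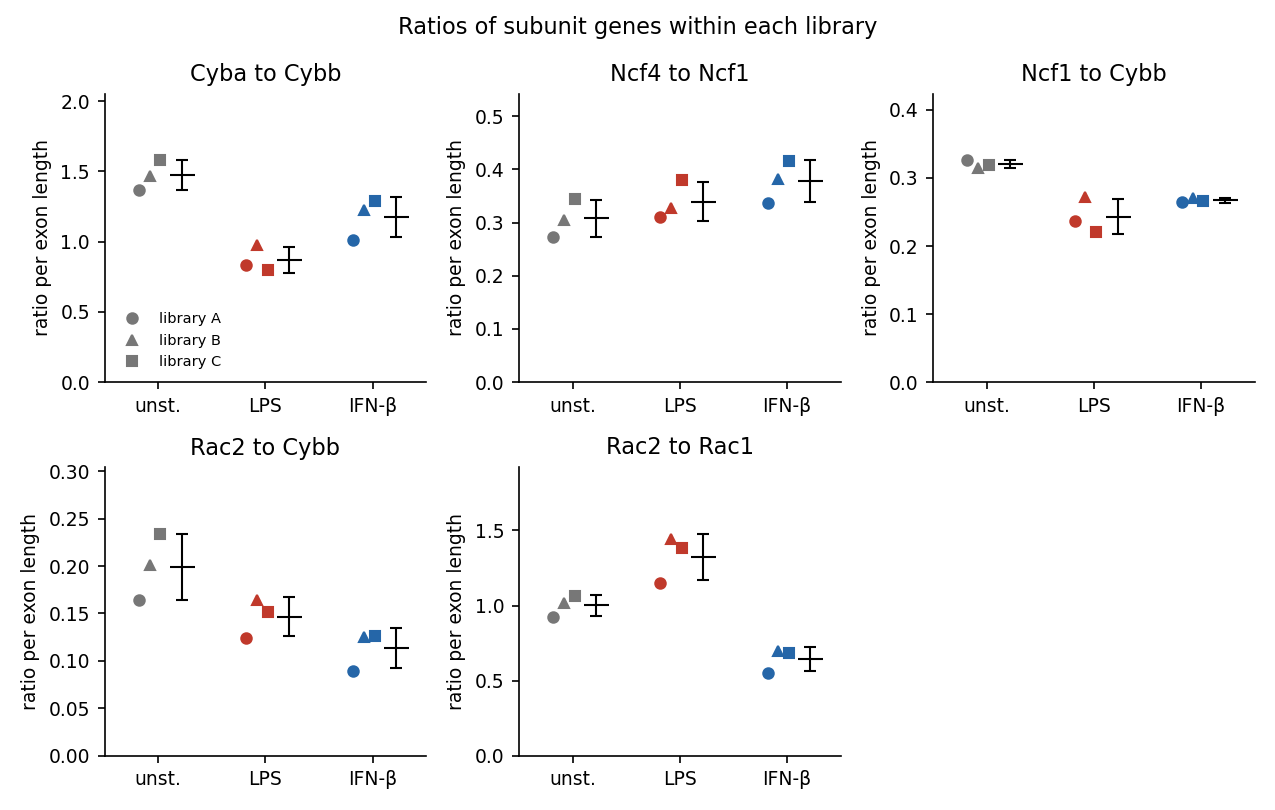
Ratio of 2 genes within each library, each corrected for exon length, on axes from 0, with symbols for library letters and bars for mean ± SD (n = 3). The *Rac2* to *Rac1* ratio runs from 0.925 to 1.06 unstimulated and averages 1.32 with LPS and 0.645 with IFN-β, and the *Cyba* to *Cybb* ratio averages 1.47, 0.870 and 1.18 in the same order.

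Across the 9 libraries *Cybb* and *Ncf1* had the most similar profiles among the members (Pearson r = 0.926 of log2 CPM), followed by *Cybb* and *Ncf4* (r = 0.898). *Rac2* was unlike the rest, with r between -0.227 and 0.380. These values describe 9 libraries in 3 treated or untreated groups that share the same scaling, and they carry no test.

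Over all tested genes outside the set, the profiles closest to *Cybb* were those of *Ms4a4a*, a membrane-spanning protein gene (r = 0.995), *Zfp821* (r = 0.993) and the cytokine gene *Il33* (r = 0.993), each of which also rose more with LPS than with IFN-β. Closest to *Cyba* were *Gak*, a clathrin-uncoating kinase gene (r = 0.990), *Tesmin* (r = 0.955) and *Gm4617* (r = 0.941), none of which passed the test in any comparison. *Ncf1* was most like the GTPase gene *Rhob* (r = 0.992), *Tfip11* (r = 0.972) and *Kbtbd4* (r = 0.972). For *Ncf4* the closest profiles were *Fbxw17* (r = 0.996), the interferon-induced exonuclease gene *Isg20* (r = 0.994) and *Tapbpl* (r = 0.993), a relative of tapasin in antigen loading. *Isg20* rose by 6.07 on the log2 scale with LPS and by 5.41 with IFN-β. *Rac2* was most like *Aqp9*, a channel for glycerol and water (r = 0.992), *Zfhx2* (r = 0.986) and the ATPase gene *Vcp* (r = 0.986), all of which were higher with LPS and lower with IFN-β under TMM scaling. All genes named here were chosen by their correlation with a member over the same libraries, so directions shared with it follow from the choice.

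The genes that surround the oxidase were described through lists of the other NADPH oxidases and their partners, of the regulators of Rac, and of the supply and disposal of its substrates and products. Counts are of genes past the edgeR test at an adjusted p under 0.05, and medians are log2 fold changes, beside -0.04 in LPS and -0.02 in IFN-β for all tested genes. The list counts stand beside 32.8% higher and 35.4% lower among all tested genes with LPS. With IFN-β these shares were 23.6% higher and 23.3% lower. No list was tested against them. All these values are under TMM scaling. With library totals alone each LPS value is about 0.58 lower and each IFN-β value about 0.31 lower, so rises smaller than these do not stay above 0.

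Of 15 other oxidase and Rac genes only 8 were expressed enough to be tested. The non-phagocyte enzymes *Nox3*, *Nox4* and *Duox2* had no count in any library and *Duox1* at most 2, and *Nox1* reached 33 counts at most. Of the 8 tested, 3 were higher and 1 lower with LPS (median 0.19) and 5 were higher and 2 lower with IFN-β (median 0.27), and only 4 in all passed when unstimulated library B, unstimulated library C or IFN-β library A was left out. *Rap1b*, a small GTPase whose relative Rap1a copurifies with the oxidase core, rose by 1.67 with LPS and 1.08 with IFN-β (edgeR adjusted p = 6.30e-07 and 5.54e-05). *Cybc1*, which encodes the chaperone EROS that the membrane pair needs in order to be made, rose by 0.50 with IFN-β (edgeR adjusted p = 3.54e-04) and gave 0.16 with LPS (edgeR adjusted p = 0.0775). *Rac3*, at 0.605 CPM unstimulated, 1.13 CPM with LPS and 0.373 CPM with IFN-β, moved in the same directions as *Rac2* (0.90 and -0.71, edgeR adjusted p = 0.00487 and 0.0437). *Nox1*, at 0.207, 0.623 and 0.700 CPM, rose by 1.53 and 1.73 from this very low level.

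All 13 exchange factors and inhibitors of Rac were tested, with 4 higher and 7 lower in LPS (median -0.28) and 5 higher and 4 lower in IFN-β (median 0.15). The exchange factor genes *Tiam2*, *Vav2* and *Tiam1* fell by 3.62, 1.74 and 1.12 with LPS. With IFN-β *Tiam2* and *Vav2* fell by 1.23 and 0.38, and *Tiam1* gave -0.01 without passing. *Racgap1*, a GTPase-activating protein of dividing cells, fell by 2.77 with LPS and 0.88 with IFN-β. Between the stimuli, 7 of these 13 were higher with IFN-β than with LPS and 0 lower (median 0.45), beside 25.8% higher and 23.3% lower among all tested genes (median 0.02).

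Kinases known to phosphorylate the cytosolic subunits or to act just upstream were mixed, 5 higher and 8 lower of 16 tested with LPS and 4 higher and 6 lower with IFN-β. *Mapk14* (p38α), *Prkca*, *Pak1* and *Prkcb*, all able to phosphorylate p47phox or lead to it, fell with LPS by 1.26, 1.21, 1.20 and 1.01, and with IFN-β by 0.44, 0.85, 0.23 and 0.46. *Syk*, named after its values were seen because it couples phagocytic receptors to the oxidase, rose by 0.91 with LPS and 0.36 with IFN-β.

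For charge compensation, heme and NADPH supply the counts were 4 higher and 4 lower of 12 with LPS and 1 higher and 3 lower with IFN-β, 7 in all with the letter as a replicate block and 9 in all with library totals alone. *Idh1*, a cytosolic source of NADPH, fell by 2.09 with LPS and 0.51 with IFN-β. *Alas1*, the first enzyme of heme synthesis, rose by 0.51 with LPS under TMM scaling (edgeR adjusted p = 8.32e-04). That is less than the shift of 0.58 from the scaling. The heme-degrading genes *Hmox1* and *Hmox2* rose by 0.80 and 0.82 with LPS. With IFN-β *Hmox2* rose by 0.99.

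Genes that remove superoxide and peroxide showed 6 higher and 4 lower of 11 with LPS (median 0.33) and 5 higher and 2 lower with IFN-β (median 0.15). *Sod2*, the mitochondrial superoxide dismutase, went from 230.1 CPM to 1418 CPM with LPS and 353 CPM with IFN-β, log2 fold changes of 2.62 and 0.62. The peroxiredoxin genes *Prdx5* and *Prdx1* rose by 1.41 and 1.01 with LPS and by 0.66 and 0.62 with IFN-β. *Gpx1*, a glutathione peroxidase gene, fell by 0.98 with LPS.

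Transcription factors described at phox promoters mostly rose, with 9 higher and 1 lower of 11 in LPS (median 1.06) and 10 higher and 1 lower in IFN-β (median 0.58, 7 in all past the test with library totals alone). *Irf1*, which acts at ISRE sequences, rose by 2.40 with LPS and by 2.01 with IFN-β. *Nfkb1* rose by 2.13 and 0.47, and *Cebpa* fell by 2.30 and 0.75. *Spi1*, which encodes PU.1, and *Irf8* were named after their values were seen, as the factors best known at the *Cybb* promoter. *Spi1* rose by 0.58 with LPS and 0.45 with IFN-β (edgeR adjusted p = 5.33e-04 and 0.00508), and *Irf8* by 1.92 and 0.81. With library totals alone each of these LPS values is about 0.58 lower and each IFN-β value about 0.31 lower.

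**Figure D5:**
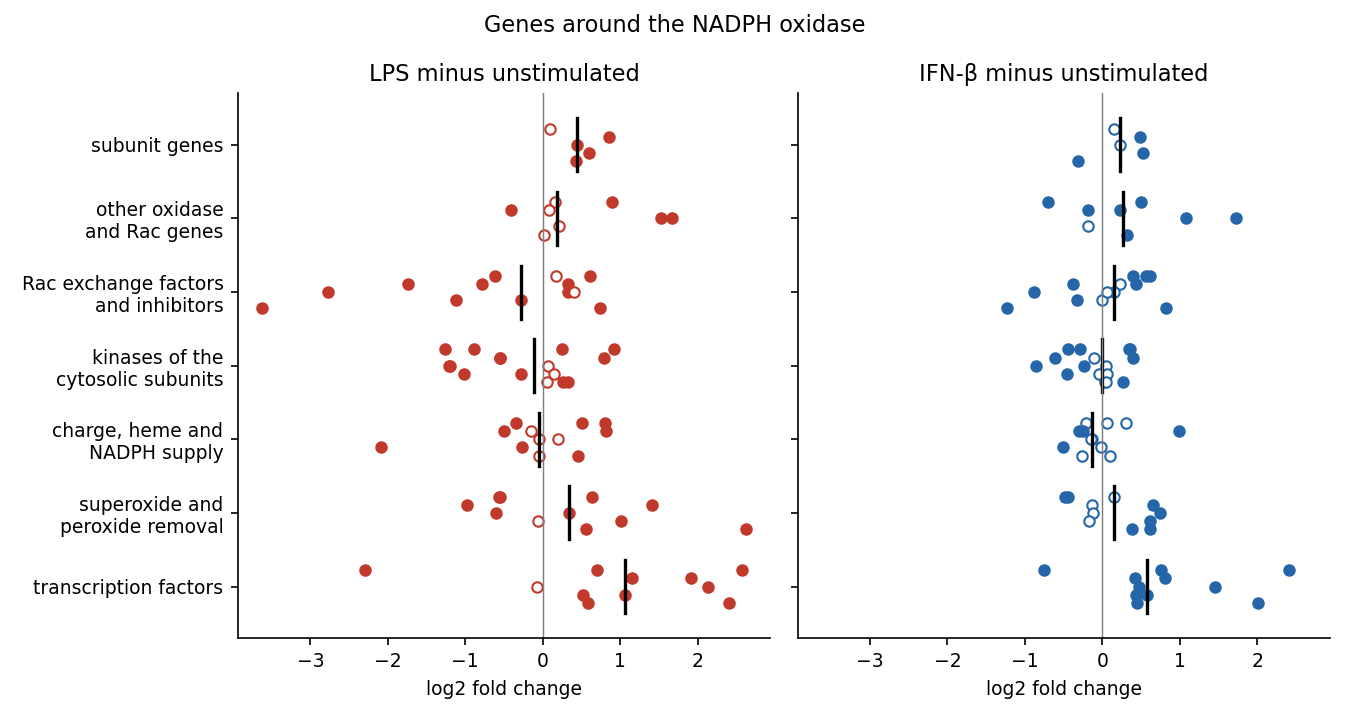
Log2 fold change (horizontal axis) of every tested gene in the subunit set and the 6 surrounding lists with LPS (left) and IFN-β (right); filled points passed the edgeR test at an adjusted p under 0.05 and black ticks are list medians. The transcription factors sit furthest right, with medians of 1.06 and 0.58, against 0.45 and 0.22 for the subunits. With library totals alone all points lie about 0.58 (LPS) or 0.31 (IFN-β) further left, which puts *Cyba*, *Ncf1* and *Rac2* below 0 in LPS and *Cyba* and *Ncf1* below 0 in IFN-β.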

How the data were processed

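RNA from 9 libraries of wild-type mouse DCs was analysed, 3 per condition, with groups taken from the labels. The deposited table held raw, whole-number counts of reads for each gene in each library, not normalized by the authors. Per the labels, reads were trimmed with Trim Galore 0.6.0 and mapped with STAR 2.7.8a, and per the study's methods they were counted by STAR on a GENCODE annotation after ribosomal RNA depletion. The strand setting is not given in the sources used here. Counts were tested with edgeR 4.0.16 and limma 3.58.1 (R 4.3.3): filterByExpr, TMM factors, a quasi-likelihood fit over all 9 libraries and Benjamini-Hochberg adjustment over 16260 genes, with a threshold of 0.05. The SE is the absolute log2 fold change divided by the square root of F. Single-library log2 values and correlations used a pseudocount of 0.5 CPM. The fit was tested on simulated counts in which few genes changed, equally in both directions. That simulation held no shift in library composition, so it cannot judge the scaling of these libraries. DESeq2 1.42.0, other scalings, filters, thresholds and left-out libraries were tried as alternatives.

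Exon lengths and positions are from GENCODE M21 (GRCm38), which held 55230 of the 55471 identifiers. Library depth was 33425803 to 43735199 counts, so 3 counts, the limit that a count of 0 allows, equal 0.0674 to 0.106 CPM. Such limits cover counting error only. Replicates of a group differed beyond sampling noise (chi-square per degree of freedom of 13.0 to 36.5).

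The labels give each condition letters A to C. Deviations from the group means correlated in 9 of 9 same-letter pairs (r from 0.134 to 0.546, mean 0.394). The average of -0.194 over 18 different-letter pairs follows from this value, because deviations within a group cancel, and is no separate evidence. On the same-letter correlations the letters were taken to pair the libraries in the within-letter differences and the replicate block. The pairing is read from the data, as no label explains the letters. The main edgeR fit did not include the letter, which entered only as an alternative. The members and lists were chosen with earlier results of these data known. Besides the members and *Rac1*, the text names the 3 genes most correlated with each member, up to 4 genes per list with the largest called change in a stimulus comparison, and marker genes of the stimuli. Some genes that this rule names are not reported here.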

Additional observations from a re-analysis of the deposited data

Results flagged for a closer look

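The responses of 2 members to the stimuli differed by a test of the difference itself. The log2 response of *Rac2* to IFN-β minus that to LPS was -0.74 ± 0.08 (edgeR adjusted p = 2.00e-05), from levels of 166 ± 13.4 CPM with IFN-β and 278 ± 17.7 CPM with LPS (mean ± SD, n = 3) against 207 ± 4.84 CPM unstimulated. *Cybb* responded to IFN-β less than to LPS, by -0.37 ± 0.13 (edgeR adjusted p = 0.0419), at 2769.7 ± 317 CPM with IFN-β, 3568 ± 279 CPM with LPS and 1979 ± 311 CPM unstimulated. The *Cybb* difference did not pass on leaving out any of 6 of the 9 libraries (edgeR adjusted p from 0.0512 to 0.129). That of *Rac2* passed in all 9 such fits (-0.80 to -0.68). Fits without an unstimulated library hardly moved either log2 value. Groups of 3 libraries are too small for a check on single outlying libraries.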

How the results depend on the processing

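Library totals alone as scaling changed most results. The members called in LPS were then 2 (1 higher), *Cyba*, *Ncf1* and *Rac2* turned to -0.49, -0.13 and -0.16, and *Ncf4* gave 0.019. In IFN-β *Cybb* gave 0.18 and *Cyba* and *Ncf1* turned to -0.15 and -0.081. Between the stimuli *Cybb* gave -0.088, *Cyba* 0.34 (now called), *Ncf1* 0.050 and *Ncf4* 0.20. Requiring in addition a log2 fold change of 1 or more in either direction left 0 members in each comparison, and 5429, 2052 and 2834 of all genes against 11084, 7631 and 7989. At an adjusted p under 0.01, 1 member was called between the stimuli.

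With the letter as a replicate block, *Ncf1* passed in IFN-β (0.23) and between the stimuli (-0.23), and no other member's call changed. Leaving out 1 library at a time gave 4 members in LPS each time, 2 to 4 in IFN-β and 1 to 2 between the stimuli. Over these fits *Cybb* ranged from 0.38 to 0.60 in IFN-β and from -0.47 to -0.31 between the stimuli, *Ncf1* from 0.11 to 0.36 in IFN-β and *Cyba* from -0.011 to 0.094 between the stimuli. Of 240 member values under all alternatives, 218 kept their direction and side of the threshold. These values include fits without a library of the group not compared, which hardly move the log2 fold change. Of 336 counts over gene lists, 328 stayed within 1.5 times the reported count. The 126 ratio values give no check of the ratios. Leaving out 1 of 3 libraries cannot move a mean ratio past the spread between replicates, and the replicate block leaves the mean unchanged. Depth limited no member, the lowest count being 2804. With 3 libraries a group, no exact test can go below p = 0.1.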

Other observations

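*Ncf4* and *Rac2* are neighbours on chromosome 15, with 17 annotated genes in the 296586 bases between them, a stretch looked at after the values of both were known. Of these, 6 were tested. *Csf2rb* and *Csf2rb2*, which encode beta chains of the GM-CSF receptor family, were abundant, at 2327 ± 137 and 1034 ± 46.0 CPM (mean ± SD, n = 3) in unstimulated DCs. Under TMM scaling *Csf2rb2* rose by 0.20 with LPS and 0.29 with IFN-β (edgeR adjusted p = 0.0433 and 0.0132), and *Csf2rb* did not pass (0.01 and 0.14). Library totals alone moved the median gene by -0.58 in LPS and by -0.31 in IFN-β, in each case further than *Csf2rb2* rose. Both rises therefore rest on the scaling. *Tst*, *Mpst*, *Kctd17* and *C1qtnf6*, all under 25 CPM, had log2 fold changes of -2.22, -0.74, -0.86 and -0.56 with LPS, all past the test, and only *Kctd17* of these 4 fell with IFN-β (-0.29). So under TMM scaling 5 of 6 tested genes in the stretch were called with LPS and 2 of 6 with IFN-β, *Ncf4* and *Rac2* not counted. Of all tested genes, 68.2% and 46.9% were called in either direction.

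Among the unstimulated libraries, A had the highest level of *Cybb*, *Cyba*, *Ncf1* and *Ncf4*, at 2300.25, 564, 473 and 71.4 CPM, and the lowest of *Rac2*, at 201 CPM. The same library also had the highest *Isg15* (35.8 CPM against 22.1 and 8.80) and *Ifit1* (40.7 CPM against 25.9 and 11.2), whereas *Mx1* was highest in library B (135 CPM in A, 142 in B and 111 in C). These values were noticed after the data were seen and were not tested.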
